A study of Homo sapiens with 12 samples.

Results

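L1MA5 to L1MA10 are 7 neighbouring subfamilies of LINE-1 retrotransposons, L1MA5, L1MA5A, L1MA6, L1MA7, L1MA8, L1MA9 and L1MA10. Members are the hg38 elements annotated to these subfamilies for which at least 1 library listed a count on the strand of the element. There were 18008 of them, among 349418 L1 elements and 1509971 elements of all 6 transposon classes with such a count. They covered 15.5 Mb. L1MA9 was the most numerous subfamily with 5311 elements, followed by L1MA8 with 3639, L1MA7 with 2755, L1MA6 with 2001, L1MA5 with 1744, L1MA10 with 1335 and L1MA5A with 1223.

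RNA was recovered by PAR-CLIP. Cells build a photoactivatable nucleoside into new RNA, ultraviolet light crosslinks that RNA to protein, and an antibody, here to a V5 tag, pulls the protein down. A375 is an established human melanoma cell line. The cells of all 12 libraries carried a transiently expressed V5-tagged protein, and labelling started 24 h after transfection. Each of the 4 constructs gave 3 libraries. Clover is a fluorescent protein used as the control for background RNA. Z18fl is full-length ZC3H18, Z18trunc is a truncated ZC3H18, and Z18truncZnFmut is the same truncated protein with aromatic residues of its zinc finger mutated. The tagged proteins came on top of whatever ZC3H18 the line makes by itself, and no library of the RNA before pulldown was used here, so that more of an RNA in the cells and more binding of it cannot be told apart. The files hold repeat elements only, so that markers of the cell line could not be looked up. Nothing in the labels says that replicates were separate cultures, and p-values measure the spread between these libraries.

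ZC3H18 is a zinc finger protein that links capped nuclear RNA to the machinery that degrades it, including the PAXT complex, which directs polyadenylated nuclear RNA to the exosome. LINE-1 elements spread by copying their own RNA into DNA. The copy is often cut short at its start, and it ends in an A-rich tail behind an AATAAA polyadenylation signal. The L1MA subfamilies stopped spreading long ago, so their copies are fossils that mostly lie in introns or between genes and are read as part of other transcripts. The median member was 558 bases long and differed from its subfamily consensus by 16.9%, with 67.1% A and T. By GENCODE release 44, 4934 members (27.4%) lay in introns of a gene on their own strand, 209 (1.16%) in exons, 4874 (27.1%) opposite to a gene and 7991 (44.4%) between genes.

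The sequences below are the last 200 bases of 2 of the elements whose counts differed between constructs, read 5′ to 3′ on the strand of the element from hg38. They are shown because the ends of such copies carry the A-rich base composition and, at times, the polyadenylation signal, which is in capitals. L1MA6 in SCMH1 ends at chr1:41164744-41164943 on the minus strand, and L1MA5 in GULP1 at chr2:188357698-188357897 on the plus strand.
L1MA6 in SCMH1: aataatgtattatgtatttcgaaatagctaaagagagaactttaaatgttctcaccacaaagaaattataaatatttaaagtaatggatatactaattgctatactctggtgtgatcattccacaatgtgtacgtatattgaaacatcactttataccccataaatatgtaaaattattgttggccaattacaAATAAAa
L1MA5 in GULP1: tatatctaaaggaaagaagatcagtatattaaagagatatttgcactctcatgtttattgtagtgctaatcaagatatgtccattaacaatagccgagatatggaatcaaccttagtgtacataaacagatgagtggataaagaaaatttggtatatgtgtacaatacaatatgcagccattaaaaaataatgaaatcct
The SCMH1 window held AATAAA 1 time and the GULP1 window did not hold it. A window ends where the annotated element ends, which need not be the end of the insertion. Among all members of at least 200 bases, 6331 of 15177 (41.7%) held AATAAA on their own strand in the last 200 bases, against 42.7% of all L1 elements and 28.1% of all elements. The windows of the members averaged 39.6% A and 29.0% T.

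Libraries differed before any element was compared. Clover libraries had 16683132 to 17673644 aligned fragments and the others 21285347 to 25686948. Z18truncZnFmut replicate 3 stood apart, with 12486 members listed against 1010 to 4244 in the other 11 libraries. It alone listed 8189 of the 18008 members, so the lengths and contexts given above for all members rest in part on it. Z18trunc replicate 3, with 4244, was next. Only 150 members had a count in all 12 libraries, and 1474 had 10 or more counts in all. Some results that rest on the third replicates are therefore given with and without them. All other values include them.

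RNA of these elements was more abundant in the pulldown of every ZC3H18 construct than in Clover on the strand of the element. Clover replicates 1 to 3 had 181, 149 and 138 counts per 1000000 aligned fragments (CPM) on the element's own strand. They came to 323, 295 and 384 CPM in Z18fl and to 407, 443 and 488 CPM in Z18trunc. Z18truncZnFmut had 319 and 308 CPM in replicates 1 and 2 and 1084 CPM in replicate 3. Every library of each construct lay above every Clover library, and every Z18trunc library above every Z18fl library. The group means were 156 ± 22.2 CPM (SD, n = 3), 334 ± 45.3, 446 ± 40.6 and 570.3 ± 445. On the log2 scale Z18fl was 2.14-fold above Clover, Z18trunc 2.87-fold and Z18truncZnFmut 3.05-fold, or 2.02-fold without its replicate 3. Z18trunc was 1.34-fold above Z18fl. The exact two-sided permutation p was 0.1 for each of these 4 differences, the smallest that 3 libraries against 3 can give, and 0.176 after Benjamini-Hochberg adjustment over 60 such tests, so no single summed value could pass a threshold of 0.05. The 3 comparisons with Clover share the Clover libraries. Z18truncZnFmut and Z18trunc overlapped on the own strand, at 1.07-fold. That log2 difference of 0.091 ranged from -0.51 to 0.40 with 1 library left out.

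The opposite strand of the same elements was counted in the same way. Clover had 134, 117 and 102 CPM there, Z18fl 144, 155 and 150.3 CPM, and Z18trunc 135, 154 and 262 CPM. Z18truncZnFmut had 122, 167 and 964 CPM. Every Z18fl and every Z18trunc library lay above every Clover library on this strand too, and Z18truncZnFmut overlapped Clover. The third replicates of both truncated constructs were high on this strand as well as on their own. Taking the opposite strand away from the own strand left 47.1, 32.5 and 36.8 CPM in Clover, 179, 140.2 and 234 CPM in Z18fl, 272, 289.5 and 226 CPM in Z18trunc, and 196, 141 and 120.01 CPM in Z18truncZnFmut. After this subtraction Z18truncZnFmut replicate 3 no longer stood above the other libraries, and no Z18truncZnFmut library reached any Z18trunc library. The zinc finger mutant differed from Z18trunc by -110.1 CPM (153 ± 39.4 against 263 ± 32.6, exact permutation p = 0.1, adjusted 0.176), and Z18trunc and Z18fl overlapped (exact permutation p = 0.2). With 1 library left out, the difference of -110.1 CPM ranged from -132 to -93.8 CPM. This subtraction was chosen after seeing the data. Of member counts on both strands, Clover had 57.5%, 56.1% and 57.7% on the own strand. Z18fl libraries had 65.6% to 71.9% and Z18trunc libraries 65.1% to 75.1%. The mutant ranged from 52.9% in replicate 3 to 72.3%.

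**Figure D1:**
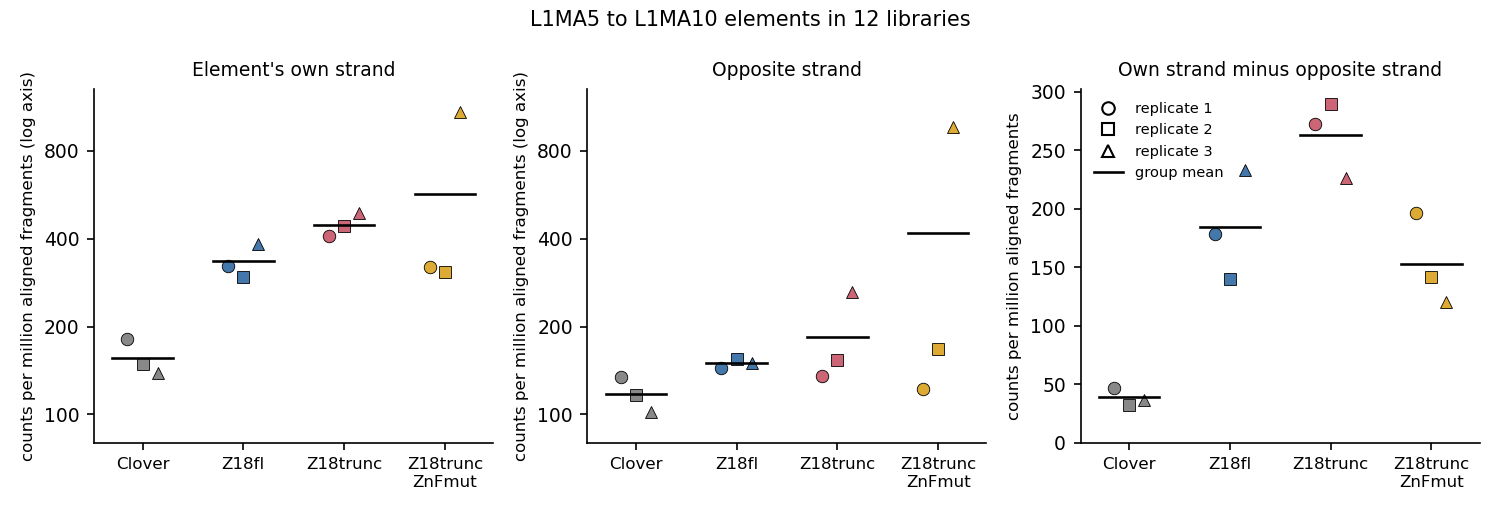
CPM of the L1MA5 to L1MA10 elements, scaled to aligned fragments, in each of the 12 libraries, on the element's own strand (left, log axis), on the opposite strand (middle, log axis) and as the difference (right, linear axis); symbols are replicates and bars group means. Z18truncZnFmut replicate 3 is high on both strands, at 1084 and 964 CPM, and falls among the other libraries in the difference.

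The subfamilies were then tested one by one on their summed counts, in a fit over all transposon subfamilies with edgeR's quasi-likelihood test and Benjamini-Hochberg adjustment. Fold changes from this fit are relative to the bulk of subfamilies, and with aligned fragments as library sizes the median log2 fold change of all subfamilies over Clover was 0.46 for Z18fl, 0.48 for Z18trunc and 1.04 for Z18truncZnFmut, in place of -0.013, 0.013 and 0.026. In Z18fl, 6 of the 7 subfamilies were higher than in Clover, where 20.1% of all 914 subfamilies were called higher. The log2 fold changes were 0.77 ± 0.10 (SE, n = 3 against 3) for L1MA6, 0.76 for L1MA9, 0.74 for L1MA8, 0.70 for L1MA7, 0.51 for L1MA5 and 0.38 for L1MA5A, with edgeR adjusted p between 6.12e-06 for L1MA9 and 0.00689 for L1MA5A. L1MA10, the smallest in counts and the most diverged, had 0.17 (edgeR adjusted p = 0.302). The L1MA5A value fell to 0.074 with uniquely mapping reads alone and was then not called.

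In Z18trunc all 7 subfamilies were higher than in Clover, against 15.7% of 924 subfamilies. L1MA6 led with 1.195 ± 0.11, and L1MA8, L1MA9, L1MA5 and L1MA7 followed between 1.15 and 1.08. L1MA5A stood at 0.87 and L1MA10 at 0.42 (edgeR adjusted p = 0.0262), and the L1MA10 call was lost in 7 of 12 alternatives, among them DESeq2 and the omission of any Clover library. L1MA6 rose from 17.3, 13.3 and 12.02 CPM in Clover to 39.0, 46.6 and 48.9 CPM in Z18trunc. L1MA9, with the most counts of the 7, rose from 49.7, 41.1 and 36.0 CPM to 115, 123 and 135 CPM. In both, the groups did not overlap.

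For Z18truncZnFmut against Clover, none of the 7 subfamilies passed the edgeR test, where 1.3% of 920 subfamilies were called higher. The log2 fold changes were nevertheless 0.38 to 0.96, and 6 of the 7 had an unadjusted edgeR p under 0.05, as had 171 of the 920 subfamilies in either direction. With aligned fragments as library sizes 1 of the 7 was called higher, against 31 of 920 subfamilies. The median of the 7 then went from 0.80 to 1.92. Without Z18truncZnFmut replicate 3, 6 of 7 were called higher, against 11% of 894 subfamilies. DESeq2 on all 6 libraries called 5, against 4.57% of subfamilies. The count thus depended on Z18truncZnFmut replicate 3 and on the tool.

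Z18trunc was set against Z18fl to ask what the truncation changes. L1MA5 (0.52 ± 0.11, edgeR adjusted p = 0.0197), L1MA5A (0.43 ± 0.096, adjusted p = 0.0283) and L1MA6 (0.37 ± 0.086, adjusted p = 0.0400) were higher in Z18trunc by edgeR, 3 of 7 against 1.48% of 947 subfamilies. L1MA5 read 53.0, 50.7 and 67.3 CPM in Z18fl and 84.3, 87.5 and 81.3 CPM in Z18trunc, without overlap. The other 4 had 0.21 to 0.36 and were not called. These calls were not stable. None of the 7 was called without Z18fl replicate 1 or 2 or without Z18trunc replicate 1 or 2, 5 were called without Z18fl replicate 3 (of all subfamilies, 14 of 959 were higher), 6 without Z18trunc replicate 3 (90 of 956), and DESeq2 called 6 (29 of 947).

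Z18truncZnFmut was set against Z18trunc to ask what the zinc finger residues change. With all 6 libraries edgeR called none of the 7 subfamilies, and of all 956 subfamilies 0 were called higher and 0 lower. At an unadjusted edgeR p under 0.05, L1MA5A alone was lower, at -0.33 ± 0.13, among 48 of the 956 subfamilies in either direction. Without the third replicate of either construct, a setting chosen after seeing the data, 4 of the 7 were lower in the mutant, against 5.5% of 945 subfamilies. These were L1MA6 (-0.44 ± 0.11, edgeR adjusted p = 0.00218), L1MA9 (-0.43 ± 0.10, adjusted p = 9.24e-04), L1MA8 (-0.34 ± 0.11, adjusted p = 0.0248) and L1MA5 (-0.33 ± 0.10, adjusted p = 0.0312). With aligned fragments as library sizes and all 6 libraries, the 7 values were instead all above 0, with a median of 0.46 beside 0.48 for all subfamilies, and none was called.

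The same fits on the opposite strand called no member subfamily higher in any of the 5 comparisons. Their fold changes are relative to the bulk of subfamilies on that strand. Scaled to aligned fragments, the members there averaged 117 CPM in Clover, 150 CPM in Z18fl and 183 CPM in Z18trunc. For Z18fl against Clover, 1 of the 7 was lower there, L1MA8 at -0.34, against 13.9% of 928 subfamilies. At an unadjusted edgeR p under 0.05, 3 of the 7 were lower for Z18fl against Clover, among 183 of 928 subfamilies. At that threshold 1 was higher for Z18trunc against Clover, among 98 of 923, and 2 for Z18trunc against Z18fl, among 71 of 954, with 0 in either direction in both comparisons of the mutant. L1MA8 shows the 2 strands side by side. In Clover its own strand lay under its opposite strand, by differences of -4.91, -7.10 and -8.23 CPM, whereas in Z18fl it lay 22.6, 13.4 and 29.7 CPM above it. The difference was 28.4, 35.4 and 28.9 CPM in Z18trunc, with 18.4, 12.2 and 3.51 CPM in Z18truncZnFmut. L1MA6 changed sign in the same way, from -2.03, -4.18 and -5.24 CPM in Clover to 7.55, 1.999 and 10.4 CPM in Z18fl and 15.7, 20.6 and 8.58 CPM in Z18trunc.

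**Figure D2:**
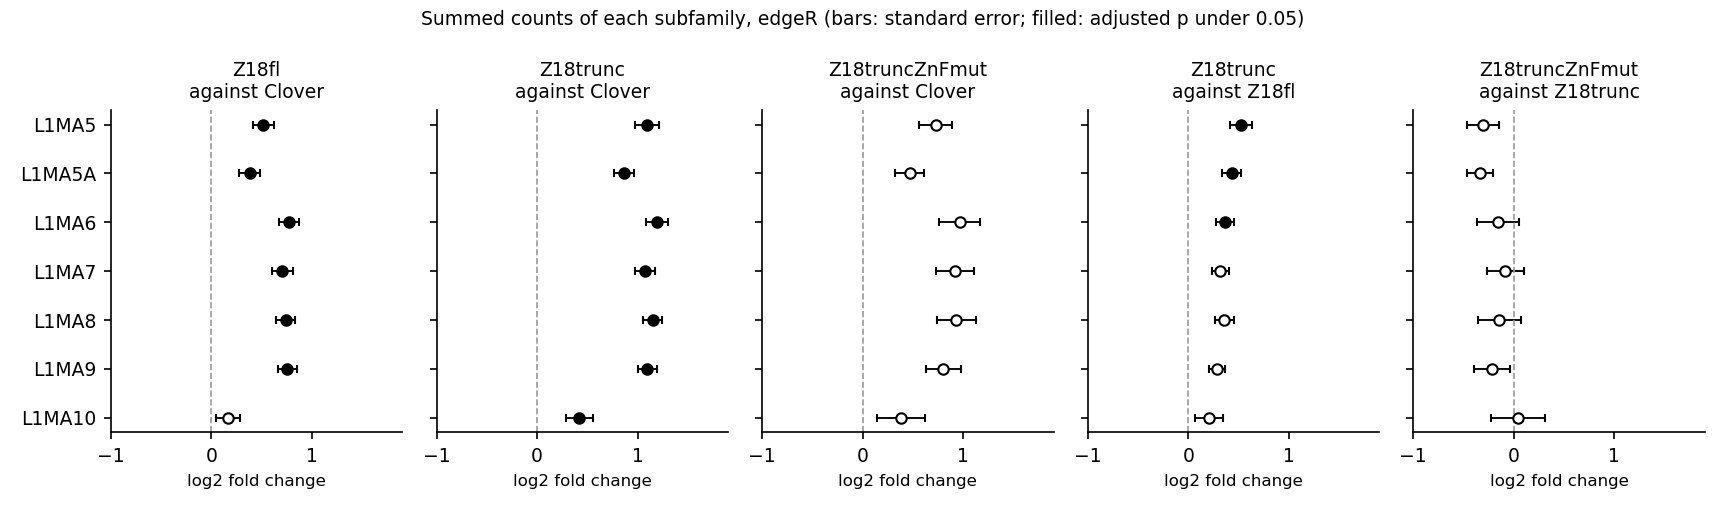
Log2 fold change of the summed counts of each of the 7 subfamilies in the 5 comparisons by edgeR with all 6 libraries; bars are standard errors and filled points have an adjusted p under 0.05. All 7 points are filled for Z18trunc against Clover, 6 for Z18fl against Clover, 3 for Z18trunc against Z18fl and none for the mutant.

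Next to their closest relatives, the members took a middle place. The younger L1MA1 to L1MA4 subfamilies, L1MA4A included, stood 2.64-fold above Clover in Z18fl, 3.78-fold in Z18trunc and 2.61-fold in Z18truncZnFmut replicates 1 and 2. The next older group, L1MB, stood at 1.79-fold, 1.92-fold and 1.53-fold. The log2 ratio of members to L1MA1 to L1MA4 went from -0.46 ± 0.054 (SD, n = 3) in Clover to -0.77 ± 0.11 in Z18fl and -0.86 ± 0.16 in Z18trunc, without overlap. The log2 ratio to L1MB went the other way, from -1.61 ± 0.079 to -1.35 ± 0.095 in Z18fl and -1.03 ± 0.035 in Z18trunc, also without overlap, and Z18trunc lay above Z18fl in it. Each of these 5 differences had an exact permutation p of 0.1, adjusted 0.176, and both ratios were chosen after seeing the data. The members made up 0.394% of all element counts in Clover, 0.64% in Z18fl and 0.783% in Z18trunc, and 2.06%, 2.27% and 2.52% of L1 counts. Among the members themselves, the log2 ratio of L1MA5 to L1MA7 over L1MA8 to L1MA10 averaged 0.12 ± 0.073 for Clover, 0.0071 ± 0.028 for Z18fl and 0.13 ± 0.12 for Z18trunc, and for Z18fl against Clover its sign turned when reads on either strand were counted.

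Members in introns, exons and intergenic sequence differed from Clover by different amounts. Intronic members, read with the gene, had 72.9, 59.9 and 64.1 CPM in Clover, 187, 164 and 219 CPM in Z18fl, 226, 253 and 235 CPM in Z18trunc, with 159.7, 154 and 311 CPM in Z18truncZnFmut. That was 2.89-fold, 3.63-fold and, without mutant replicate 3, 2.40-fold over Clover, with no overlap. Exonic members had 22.2, 24.1 and 18.9 CPM in Clover, 22.3, 22.6 and 25.1 CPM in Z18fl, 25.4, 25.7 and 22.4 CPM in Z18trunc, with 23.1, 22.7 and 25.6 CPM in Z18truncZnFmut. Here all constructs overlapped Clover, at 1.08-fold to 1.13-fold. Intergenic members stood at 1.998-fold in Z18fl and 2.87-fold in Z18trunc, and members opposite to a gene at 1.44-fold and 2.40-fold. Introns held 40.3%, 40.1% and 46.3% of member counts in Clover, 57.9%, 55.7% and 57.2% in Z18fl and 55.4%, 57.2% and 48.0% in Z18trunc. The exon share averaged 14.0% ± 1.95 for Clover. It was 7.04% ± 0.572 for Z18fl, 5.55% ± 0.859 for Z18trunc and 5.65% ± 2.85 for the mutant, all below Clover without overlap (exact permutation p = 0.1 for each, adjusted 0.176). In Z18truncZnFmut replicate 3 the intron share was 28.6%, against 50.1% and 50.04% in replicates 1 and 2. Its exon share was 2.36%, and the mutant mean without it was 7.29%.

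**Figure D3:**
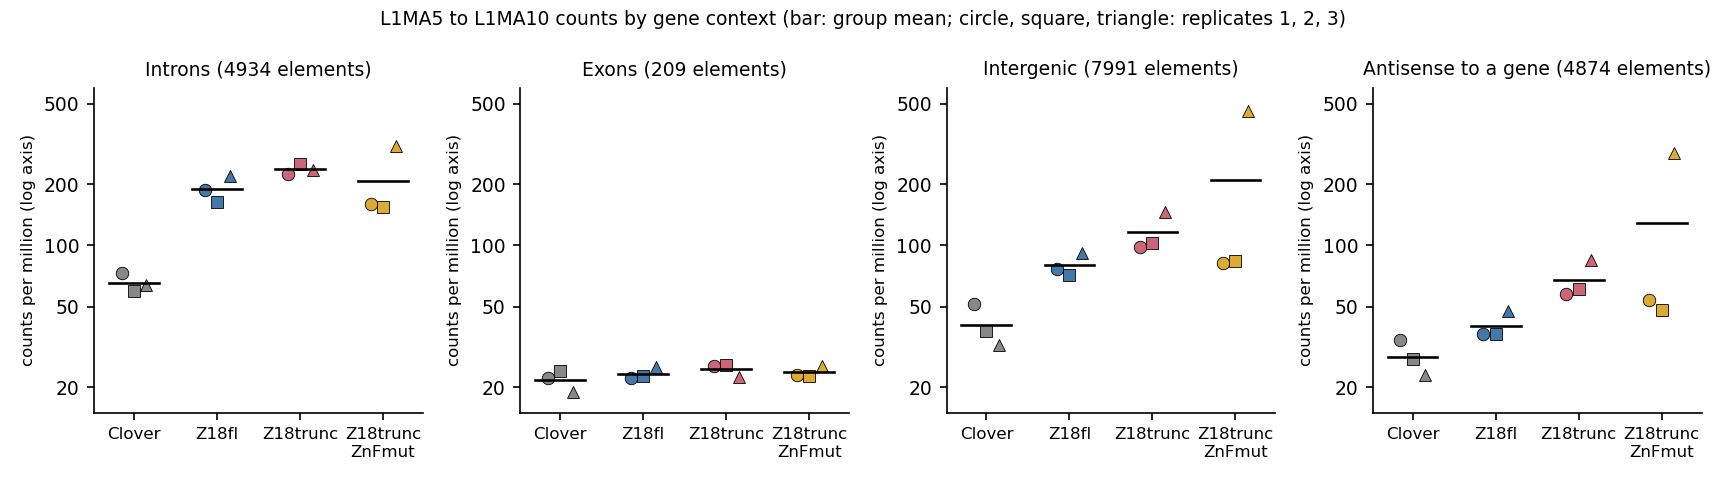
CPM of the members (log axis) by gene context in the 12 libraries, with the number of elements in each title; bars are group means and symbols replicates. Introns, intergenic elements and elements opposite to a gene lie above Clover in all constructs, whereas exons lie between 18.9 and 25.7 CPM throughout.

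Within introns, long copies differed more from Clover than short ones. The 575 intronic members of 1500 bases or more had 11.2, 7.29 and 8.79 CPM in Clover, 45.8, 41.5 and 65.9 CPM in Z18fl, 68.7, 77.6 and 68.0 CPM in Z18trunc, with 45.0, 40.1 and 87.1 CPM in Z18truncZnFmut. They were 5.59-fold over Clover in Z18fl, 7.96-fold in Z18trunc and 4.75-fold in mutant replicates 1 and 2. The 1610 intronic members from 500 to under 1500 bases were at 2.63-fold, 3.31-fold and 2.21-fold, and the 2749 under 500 bases at 2.20-fold, 2.40-fold and 1.76-fold. The log2 ratio of the longest to the shortest of these classes averaged -1.34 ± 0.20 (SD, n = 3) for Clover. The means were 0.0042 ± 0.27 for Z18fl, 0.39 ± 0.17 for Z18trunc and 0.039 ± 0.17 for the mutant. Without replicate 3 the mutant averaged 0.092. Each construct lay above Clover without overlap (exact permutation p = 0.1 for each, adjusted 0.176). This ratio, too, was chosen after seeing the data. In other intronic L1 elements the same length classes, from short to long, were at 2.14-fold, 2.88-fold and 3.18-fold in Z18trunc, and at 2.14-fold, 2.64-fold and 2.49-fold in Z18fl, where the longest class was not the highest. In intronic elements outside L1 they were at 1.46-fold, 1.43-fold and 1.42-fold in Z18trunc and at 1.46-fold, 1.53-fold and 1.69-fold in Z18fl.

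**Figure D4:**
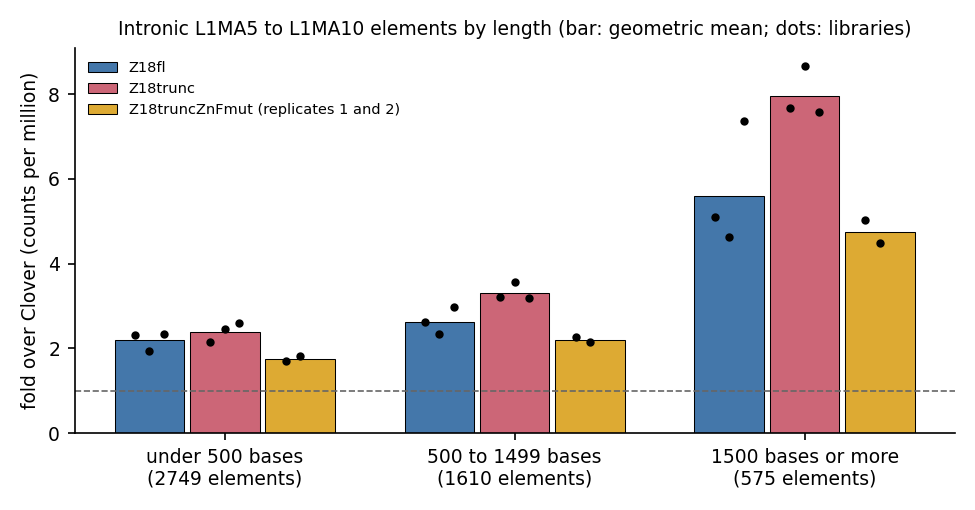
Fold over Clover of intronic members in 3 length classes, on a linear axis from 0; bars are geometric means of libraries, dots single libraries, the dashed line is 1, and Z18truncZnFmut is drawn without replicate 3. In Z18trunc the bars stand at 2.40, 3.31 and 7.96 from the shortest to the longest class.

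By divergence and base composition the folds lay closer together. Members with 20% divergence or more were at 2.48-fold in Z18fl and 3.42-fold in Z18trunc over Clover, those of 15 to 20% at 2.04-fold and 2.77-fold, and those under 15% at 2.03-fold and 2.58-fold. By base composition, members of 60 to 70% AT were at 2.37-fold and 3.19-fold, those under 60% at 1.74-fold and 2.25-fold, and those of 70% or more at 1.33-fold and 1.80-fold. Averaged over counts, the AT content of the elements came to 63.8% ± 0.327 for Clover, 64.4% ± 0.0493 for Z18fl and 64.5% ± 0.288 for Z18trunc.

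Few single members had enough counts for a test. In all, 183 passed the filter of at least 1 comparison, in 137 clusters within 1000 bases of each other, so that neighbours can be pieces of 1 insertion. They had a median length of 1291 bases, and 108 were intronic, in 69 host genes. AGO3, an Argonaute gene of small-RNA silencing, held 6. A member that is high in 1 group can pass the filter through that group alone, so the counts below describe the tested members only. With aligned fragments as library sizes the median log2 fold change over Clover of all loci was 0.37 for Z18fl, 0.31 for Z18trunc and 0.15 for the mutant, in place of 0.0084, -0.033 and -0.050.

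For Z18fl against Clover, 37 of 64 tested members were higher and 8 lower by edgeR, against 28.3% and 24.6% of 12098 loci, with a median log2 fold change of 1.54. For Z18trunc against Clover, 66 of 101 were higher and 5 lower, against 22.5% and 13.4% of 13204 loci, with a median of 2.17. With aligned fragments as library sizes this split became 70 higher and 0 lower, and that of all loci went from 2969 higher and 1773 lower to 3701 and 504. For Z18truncZnFmut against Clover, 20 of 46 were higher and 1 lower, against 12.3% and 4.83% of 10152 loci, with a median of 0.28. In these 3 comparisons 57.8%, 65.3% and 43.5% of tested members were higher. L1MA1 to L1MA4 loci had larger shares, 69.9%, 77.7% and 63.0%, and L1MB loci smaller ones, 38.8%, 33.0% and 10.6%. All L1 loci outside the members had 52.4%, 54.6% and 39.0%. Z18trunc against Z18fl gave 10 of 176 higher and 1 lower, against 2.62% and 3.13% of 19413 loci. Z18truncZnFmut against Z18trunc gave 0 of 157 higher and 1 lower, against 0.368% and 0.351% of 16833 loci, with a median of -0.32. At an unadjusted edgeR p under 0.05 the last comparison had 2 members higher and 30 lower, against 1138 and 1279 of the 16833 loci. Without Z18truncZnFmut replicate 3 it had 3 higher and 52 lower of 218 tested, with 2986 of 21933 loci at that threshold in either direction.

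In Z18trunc against Clover, 41 of 54 tested intronic members were higher and 1 lower, against 2052 and 348 of all 5792 intronic loci. Of 19 intergenic members 13 were higher and 0 lower, against 549 and 239 of 2336 loci, and of 14 opposite to a gene 11 were higher and 1 lower, against 216 and 194 of 1352. Among 14 exonic members 1 was higher and 3 lower, against 152 and 992 of 3724 exonic loci. The 1 was an L1MA7 in JPX, a noncoding RNA gene, and the 3 lay in MDM2, CKAP2L and IGF2R. These were looked up after the values were seen. Among L1 loci outside the members, 1559 of 2277 in introns were higher and 44 lower, with a median log2 fold change of 1.85. Between genes 438 of 908 were higher and 22 lower. Opposite to a gene 148 of 467 were higher and 24 lower, and in exons 43 of 357 were higher and 62 lower. The 54 intronic members lay in 38 genes and had a median log2 fold change of 2.54, whereas the 40 tested elements outside L1 in the same genes had 0.23. In the 13 genes that held both, the members were above the other elements in 11, with a median difference within genes of 0.77. The same count was 6 of 10 genes in Z18fl (0.31) and 3 of 5 in the mutant (0.15). Members with few Clover counts could pass the filter only through the construct. These within-gene values therefore describe the tested elements, leave out other L1 loci, and do not test members against other elements.

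Single elements show the counts behind this. Those named are 4 of the 5 with the most counts and elements that moved most in a comparison. Of the latter, the MDM2 copy had a mean score of at least 90, and another 7 were picked with a minimum of 70, which was set after the values were seen. The score is the percent of the reads aligned to an element that were assigned to it. L1MA6 at chr1:41164744-41167725 (minus strand, 2982 bases) lies in an intron of SCMH1, which encodes a Polycomb group protein. It had 1, 6 and 1 counts in Clover, 74, 37 and 73 in Z18fl, 51, 73 and 57 in Z18trunc, with 14, 28 and 34 in Z18truncZnFmut. The groups did not overlap with Clover, and every mutant library lay below every Z18trunc library. Its log2 fold change over Clover was 3.62 ± 0.49 (SE) in Z18fl (edgeR adjusted p = 1.18e-05) and 3.63 ± 0.47 in Z18trunc. The difference of the mutant from Z18trunc, -1.01 ± 0.31, did not pass (edgeR adjusted p = 0.122).

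L1MA5 at chr2:188354697-188357897 (plus strand, 3201 bases) lies in an intron of GULP1, an adaptor gene of the engulfment of dying cells. It had 1, 2 and 3 counts in Clover, 22, 32 and 53 in Z18fl, 64, 78 and 51 in Z18trunc, with 41, 37 and 70 in Z18truncZnFmut. The log2 fold changes over Clover were 3.23, 4.12 and 3.93. L1MA9 at chr22:46834234-46836876 (plus strand, 2643 bases) lies in an intron of TBC1D22A, a gene with a Rab GTPase-activating domain. It had 1, 2 and 2 counts in Clover, 26, 18 and 32 in Z18fl, 58, 69 and 57 in Z18trunc, with 28, 38 and 41 in Z18truncZnFmut. It was higher in Z18trunc than in Z18fl (1.21 ± 0.23, edgeR adjusted p = 0.00369), and the mutant libraries lay between those of Clover and Z18trunc, at -0.55 ± 0.26 against Z18trunc (edgeR adjusted p = 0.325). L1MA8 at chr8:33908697-33911384, in an intron of the gene ENSG00000253642, had 3, 2 and 1 counts in Clover, 81, 53 and 103 in Z18fl, 64, 82 and 49 in Z18trunc, with 40, 32 and 37 in Z18truncZnFmut. Its log2 fold change of 4.38 ± 0.42 in Z18fl was the largest of the named elements in that comparison.

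A copy outside introns also rose. L1MA5 at chr4:13316790-13321120 (minus strand, 4331 bases), between genes, had 1 count in each Clover library, 14, 7 and 26 in Z18fl, 48, 39 and 37 in Z18trunc, with 37, 8 and 44 in Z18truncZnFmut. With 3 Clover counts in all, its CPM in Z18trunc was 29.7 times that of Clover with an exact 95% counting interval of 9.93 to 146, which covers counting error only. Z18trunc was 1.34 ± 0.31 above Z18fl there (edgeR adjusted p = 0.0144), a call lost without Z18fl replicate 1 or 2 or Z18trunc replicate 1. Fitted fold changes of elements with so few Clover counts depend on the prior count of edgeR and are not bounds.

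Elements named for their high counts differed in direction. L1MA5 at chr4:76786387-76787632 (plus strand, 1246 bases), opposite to SHROOM3-AS1 and 3133 bases behind the end of SHROOM3, had 93, 87 and 106 counts in Clover, 75, 80 and 103 in Z18fl, 119, 118 and 99 in Z18trunc, with 204, 103 and 169 in Z18truncZnFmut. Its log2 fold change was -0.997 ± 0.17 in Z18fl (edgeR adjusted p = 1.21e-04) and -0.59 in Z18trunc, and the latter was -0.24 and not called with aligned fragments as library sizes. L1MA5A at chr12:68843337-68843469 (plus strand, 133 bases) lies wholly in untranslated exon sequence of MDM2, the gene of the ubiquitin ligase for p53. It had 76, 93 and 54 counts in Clover, 48, 57 and 54 in Z18fl, 97, 82 and 92 in Z18trunc, with 81, 95 and 64 in Z18truncZnFmut. In Z18fl it was lower than in Clover (-1.33 ± 0.23, edgeR adjusted p = 1.17e-04), and so it was in Z18trunc (-0.55 ± 0.21, edgeR adjusted p = 0.0481), where the libraries overlapped. The Z18trunc call was lost in 10 of 12 alternatives, among them DESeq2, unique reads and the omission of any Z18trunc library, with -0.18 to -0.56 in those 10. It was higher in Z18trunc than in Z18fl (0.69 ± 0.20, edgeR adjusted p = 0.0414), a call lost without any 1 of the 6 libraries. L1MA5 at chr1:36045843-36046409 (plus strand, 567 bases), in an intron of AGO3, had 53, 26 and 55 counts in Clover, 65, 68 and 85 in Z18fl, 80, 116 and 81 in Z18trunc, with 71, 89 and 48 in Z18truncZnFmut. None of its 5 comparisons was called. The L1MA9 at chr14:19082054-19082750 (plus strand, 697 bases), in an intron of the pseudogene DUXAP9, had 20, 13 and 26 counts in Clover and 65 to 123 in the other 9 libraries, and was called higher in all 3 constructs. Only 34.3% of its counts mapped uniquely, so its place is uncertain.

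Elements that fell, or that differed between the truncated constructs, were few. L1MA8 at chr15:42218551-42219526 (minus strand, 976 bases) lies in an intron of TMEM87A, a Golgi membrane protein gene. It had 52, 49 and 47 counts in Clover, 30, 35 and 40 in Z18fl, 57, 52 and 58 in Z18trunc, with 42, 44 and 42 in Z18truncZnFmut. Its log2 fold changes were -1.34 ± 0.23, -0.65 ± 0.21 and -0.84 ± 0.25, and the latter pair was not called with aligned fragments as library sizes. L1MA5A at chr15:56124439-56125599 (minus strand, 1161 bases), in an intron of RFX7, a transcription factor gene, was the 1 member called lower in Z18truncZnFmut than in Z18trunc. It had 3, 0 and 4 counts in Clover, 20, 14 and 28 in Z18fl, 42, 35 and 26 in Z18trunc, with 9, 8 and 12 in Z18truncZnFmut. The truncated constructs did not overlap. The log2 fold change was -1.60 ± 0.36 (edgeR adjusted p = 0.0392), and the call was lost without any 1 of the 6 libraries and with DESeq2.

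**Figure D5:**
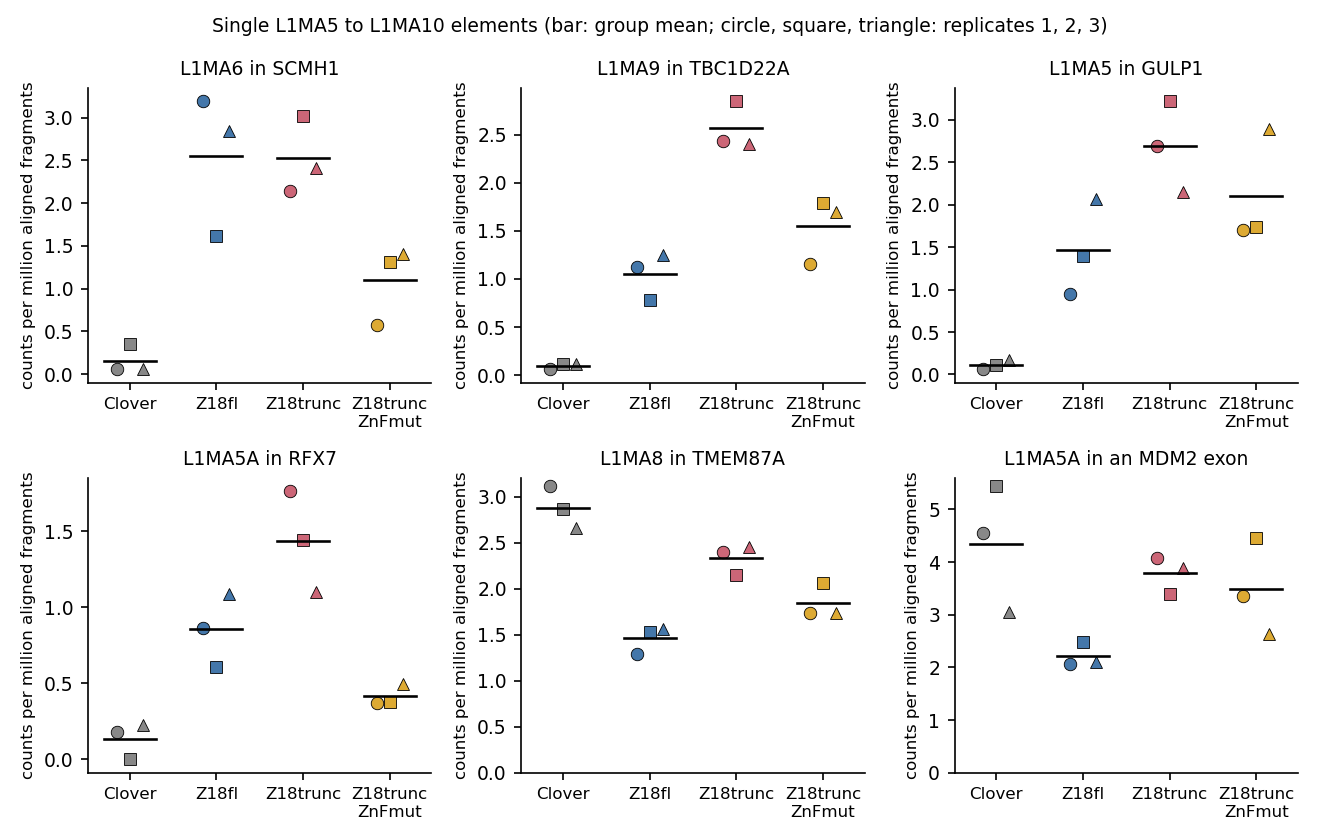
CPM of 6 single elements, scaled to aligned fragments, in the 12 libraries, on linear axes from 0; bars are group means and symbols replicates. The first 4 are lowest in Clover, whereas the L1MA8 in TMEM87A and the L1MA5A in MDM2 have their highest group mean there.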

How the data were processed

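The 12 anti-V5 PAR-CLIP libraries of A375 cells were used, grouped by their titles. Per the submitters' processing notes and the methods, the authors trimmed reads (cutadapt 4.6), mapped them to hg38 and assigned them to single repeat elements on each strand with SQuIRE, library by library. The deposited totals are expected counts, to which the authors added shares of multimapping reads by expectation maximization. The deposited unique reads and aligned fragments are counts, and the score deposited by the authors is the percent of reads aligned to an element that were assigned to it. Starts, counted from 0 in the files, are given from 1.

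Expected counts on the element's strand were rounded and fitted over all elements, or all subfamilies, of 6 transposon classes with edgeR 4.0.16 (R 4.3.3). The quasi-likelihood test was used with TMM scaling and filterByExpr (minimum count 10, minimum total 15) on the 6 libraries compared, and Benjamini-Hochberg adjusted p under 0.05 was called. Standard errors were taken as the fold change over the root of F. Single values per library were compared by exact two-sided permutation tests, 60 in all, 20 of them on 4 measures added after seeing the data. Elements covered for 50% or more by exons of their strand were exonic, and those whose middle lay elsewhere in a gene of that strand intronic.

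Members and lists were chosen with earlier results of these data known. Named elements were the 5 with the most counts and, per comparison, those that rose most (3 per construct against Clover) and fell most among called elements without overlap, with 30 mean counts and a mean score of 90, or of 70 in the later version. Of these, 2 are not reported here. The fits were tested on simulated data. Alternatives were DESeq2 1.42.0, library sizes from aligned fragments, no filter, unique reads, either strand, all 12 libraries in 1 fit, the replicate number as a block, and the omission of single libraries. Deviations of same-numbered libraries correlated between -0.20 and 0.061, except for Z18truncZnFmut with Z18trunc summed by subfamily (0.39, 0.17 and 0.59). The numbers were not taken as pairs in any main fit, this comparison included. pandas 2.3.3, numpy 2.4.6 and pysam 0.24.0 did the remaining work.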

Additional observations from a re-analysis of the deposited data

How the results depend on the processing

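Depth limited the single elements, of which 1474 of 18008 had 10 or more counts. Members called in either direction, with all libraries, numbered 45, 71 and 21 when Z18fl, Z18trunc and Z18truncZnFmut were set against Clover, 11 when Z18trunc was set against Z18fl and 1 when the mutant was set against Z18trunc. They were called among 64, 101, 46, 176 and 157 tested members. In that order, no filter on low counts gave 85, 145, 44, 3 and 2 of 5441, 7063, 14552, 7681 and 16107 tested. All 12 libraries in 1 fit gave 106, 117, 84, 2 and 0 of 190 tested. For Z18trunc against Clover, no filter called 4754 loci higher and 100 lower of all 740717. The 12-library fit there called 4186 higher and 2635 lower of 23343. Unique reads alone gave 27, 40 and 13 of 45, 66 and 29 tested for the 3 comparisons with Clover. DESeq2 gave 7 for Z18trunc against Z18fl, and aligned fragments as library sizes gave 6 for Z18truncZnFmut against Z18trunc. Leaving out 1 library gave 31 to 73, 43 to 123, 20 to 33, 3 to 16 and 0 to 2. Omitting a Clover library raised the first count to 68 to 73 and the second to 118 to 123, omitting Z18trunc replicate 1 or 2 lowered the second to 47 or 43, and omitting Clover replicate 1 or 3 raised the third to 32 or 33. The fourth fell to 3 without Z18fl replicate 1 or 2, to 4 without Z18trunc replicate 1 and to 6 without Z18trunc replicate 2. The fifth was 0 without any Z18trunc library or without the third replicate of both constructs, and 2 without Z18truncZnFmut replicate 1. The number of tested members changed too. Without a Clover library it was 130 to 132 for the first, 199 to 203 for the second and 88 or 89 for the third. Without Z18trunc replicate 1 or 2 it was 69 for the second. For the fourth it rose to 200 to 219 in the omissions named. The cause of the changed counts was not tested.

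Of the 7 subfamilies, 0 were called for Z18truncZnFmut against Clover with all libraries, against 5 by DESeq2, 1 with aligned fragments as library sizes, 6 with all 12 libraries in 1 fit and 0 to 6 with 1 library left out, the 6 without Z18truncZnFmut replicate 3. For Z18trunc against Z18fl, 3 were called, against 6 by DESeq2, 0 with all 12 libraries in 1 fit and 0 to 6 with 1 library left out. For Z18truncZnFmut against Z18trunc, 0 were called and 4 without the third replicate of either construct. With the replicate block, 0 subfamilies were called for Z18trunc against Z18fl and 0 elements for Z18truncZnFmut against Z18trunc, and the block moved no other count of calls by over 1.5 times.

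Single subfamilies turned direction only for Z18truncZnFmut against Z18trunc. With aligned fragments as library sizes the log2 fold changes were 0.13 for L1MA5, 0.089 for L1MA5A, 0.46 for L1MA6, 0.51 for L1MA7, 0.47 for L1MA8 and 0.37 for L1MA9. L1MA10 was -0.018 with all 12 libraries in 1 fit, -0.0087 with the replicate block and -0.34 to 0.24 with 1 library left out. The ranges with 1 library left out also crossed 0 for L1MA6 (-0.44 to 0.0067), L1MA7 (-0.32 to 0.088) and L1MA8 (-0.42 to 0.017). Of the other values of single subfamilies under an alternative, 350 kept direction and call, 27 gained and 28 lost a call. For the single elements picked by the naming rule 360 kept both and 53 lost the call, with none reversed.

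Counting reads on either strand lowered the log2 difference in CPM from Clover to 0.83 for Z18fl and 1.198 for Z18trunc, the difference in percent of element counts to 0.155 and 0.272, and the difference in percent of L1 counts to 0.0790 for Z18fl. It turned the log2 ratio of L1MA5 to L1MA7 over L1MA8 to L1MA10 to 0.022 for Z18fl against Clover and moved it to 0.11 for Z18trunc, and the difference in log2 ratio to L1MB became 0.50 for Z18trunc. Unique reads gave own minus opposite strand differences from Clover of 109.9, 158 and 69.9 CPM for Z18fl, Z18trunc and Z18truncZnFmut. The other 439 values of summed measures moved by less than 1 SD of the replicates, and some changed sign within it. For Z18truncZnFmut against Z18trunc, leaving out 1 library took the log2 difference in CPM from 0.091 to as low as -0.51. The difference in percent of element counts there went from 0.017 to as low as -0.18.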
